A study of Homo sapiens with 6 samples.

Results

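The genes described here are divergent transcript (DT) genes, long noncoding RNA (lncRNA) genes named after a neighbouring coding gene. Members were the rows of the deposited count table whose gene has the class lncRNA and a symbol ending in -DT, and 588 of the 60664 genes in the table met this rule. A protein-coding gene with the symbol before the suffix, called the partner here, was found for 587 members. UHRF1BP1L-DT had no partner under that symbol, and TNFRSF10A-DT is the symbol of a pair of gene IDs that share a partner. The libraries came from U-2 OS, an established human osteosarcoma line labelled polyploid, after transfection with control siRNA (siControl) or with siRNA against SFPQ (siSFPQ). The transfection protocol gives 30 nM siRNA for all 6 libraries, and each condition has 3 libraries. SFPQ is a nuclear protein that binds RNA and DNA and acts in splicing, transcription and paraspeckles. The comparison asks which transcripts change when SFPQ is depleted, here for each DT gene beside its partner. A knock-down leaves residual SFPQ, and all libraries come from 1 cell line. The study's methods call the 3 libraries of a condition biological replicates, and the labels give no separate cultures or days.

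Many mammalian promoters are transcribed in both directions. One start site yields the coding RNA, and a separate start site upstream on the other strand yields a noncoding RNA that is usually short-lived, ends early at poly(A) signals and is degraded by the nuclear exosome. DT genes are the annotated cases that are long or stable enough to be seen in polyadenylated RNA. Such shared promoters are often rich in GC and CpG and mostly lack a TATA box.

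With GENCODE 44 (GRCh38), 436 members pointed away from the partner on the opposite strand with the start sites apart, and the median distance was 139.5 bases (quartiles 79.75 and 280.2). In another 150 the start of the DT gene lay beyond that of the partner, so that the genes cross or one lies inside the other, and 1 of the TNFRSF10A-DT genes lies on the partner's strand. In all, 517 members started within 1000 bases of the partner and 33 started more than 5000 bases away. RefSeq windows (GRCh38.p14) from 250 bases before to 50 after the start were found for 440 members. Their median GC content was 68.7%, against 58.3% over all 27305 windows, with a median of 30.5 CpG dinucleotides against 14. The letters GGGCGG of the GC box were found on either strand in 73.6% of the members' windows and in 44.6% of all windows. TATAAA was found in 4.09% against 11.95%, CCAAT in 30.45% against 35.7%, and the ETS letters CCGGAAG in 18.4% against 10.7%. The NRF1 letters GCGCATGCG were found in 3.64% against 2.10%, the YY1 letters AAGATGGCG in 2.96% against 1.85%, and the CRE letters TGACGTCA in 3.18% against 1.98%. The 486 partner windows had a median GC content of 67.7% and a GC box in 72.6%. CCAAT was found in 38.7% of them, the ETS letters in 22.4%, the CRE letters in 4.73% and TATAAA in 4.94%, with no test of the difference from the members. Some windows of a DT gene and its partner overlap, so these shares are not independent.

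The DNA between the start sites of 10 pairs is shown because it is the stretch from which both genes of a pair are read in opposite directions, while their RNAs changed together, apart or not at all. Each stretch runs 5′ to 3′ on the partner's strand, from the first base of the DT gene to the first base of the partner, in GRCh38. Capitals mark GC box, CCAAT box and ETS letters on either strand, with overlapping matches counted. In the first 4 pairs the DT gene changed strongly, in the next 3 DT gene and partner changed in opposite directions, and in the last 3 the DT gene changed less while the difference from its partner was passed.
PDGFA-DT (chr7:520296-520391, minus strand): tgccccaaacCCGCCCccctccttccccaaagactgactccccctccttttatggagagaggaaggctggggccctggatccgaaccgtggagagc
SUCLG2-DT (chr3:67654612-67654669, minus strand): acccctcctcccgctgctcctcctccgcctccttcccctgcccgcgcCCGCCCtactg
FRG1-DT (chr4:189940733-189940870, plus strand): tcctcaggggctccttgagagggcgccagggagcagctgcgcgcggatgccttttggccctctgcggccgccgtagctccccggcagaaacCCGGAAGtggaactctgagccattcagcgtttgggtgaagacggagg
GAS6-DT (chr13:113864076-113864112, minus strand): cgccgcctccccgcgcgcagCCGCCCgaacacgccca
TSPAN5-DT (chr4:98658611-98658894, minus strand): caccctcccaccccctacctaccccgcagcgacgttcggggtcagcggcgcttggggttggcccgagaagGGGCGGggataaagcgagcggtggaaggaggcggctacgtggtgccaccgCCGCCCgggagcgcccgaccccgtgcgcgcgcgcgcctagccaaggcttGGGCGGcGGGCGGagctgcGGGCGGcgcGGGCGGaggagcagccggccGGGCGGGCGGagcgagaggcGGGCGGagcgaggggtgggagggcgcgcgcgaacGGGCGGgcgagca
HCCS-DT (chrX:11111220-11111301, plus strand): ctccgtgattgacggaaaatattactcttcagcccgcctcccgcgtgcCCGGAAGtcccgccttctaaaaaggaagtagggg
FLVCR1-DT (chr1:212858139-212858275, plus strand): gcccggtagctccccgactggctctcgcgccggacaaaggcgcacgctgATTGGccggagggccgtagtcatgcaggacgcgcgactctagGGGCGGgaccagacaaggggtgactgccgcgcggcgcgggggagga
RNASEH1-DT (chr2:3558333-3558419, minus strand): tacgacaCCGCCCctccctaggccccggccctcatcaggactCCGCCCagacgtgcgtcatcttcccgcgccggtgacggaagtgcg
NIPBL-DT (chr5:36876700-36876769, plus strand): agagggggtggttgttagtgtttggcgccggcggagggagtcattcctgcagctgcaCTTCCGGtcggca
BAIAP2-DT (chr17:81034881-81035122, plus strand): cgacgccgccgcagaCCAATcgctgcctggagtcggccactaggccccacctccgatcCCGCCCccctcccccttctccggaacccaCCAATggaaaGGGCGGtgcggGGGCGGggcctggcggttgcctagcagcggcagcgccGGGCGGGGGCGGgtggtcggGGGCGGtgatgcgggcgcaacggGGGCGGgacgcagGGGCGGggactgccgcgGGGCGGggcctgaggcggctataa
These stretches ranged from 37 bases at GAS6-DT to 284 at TSPAN5-DT. GC boxes were most frequent between TSPAN5-DT and TSPAN5, with 10, and between BAIAP2-DT and BAIAP2, with 9. The ETS letters occurred once each in the FRG1-DT, HCCS-DT and NIPBL-DT stretches.

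Total counts were 46142855 to 47119203 in siControl and 43469321 to 45543610 in siSFPQ, so 3 counts correspond to 0.0637 to 0.0690 counts per 1000000 counts of the library (CPM). SFPQ itself had 22338, 23139 and 21753 counts in siControl and 3140, 3863 and 3151 in siSFPQ, a log2 fold change of -2.73 (SE 0.05). Of the markers of a mesenchymal bone-derived line, COL1A1 (101230 to 140758 counts), SPARC, VIM and RUNX2 (2541 to 2872) were abundant, whereas SP7 (0 to 5) and BGLAP (0 to 6) were near 0. CD3E, HBB and ALB had at most 5 counts in every library, and EPCAM had 185 to 258. The epithelial marker KRT18 was abundant too, with 5814 to 6029 counts in siControl and 14710 to 15902 in siSFPQ. COL1A2 (31 to 55), ALPL (128 to 195), CDH1 (30 to 92) and PTPRC (5 to 39) were low. Of the epithelial markers, KRT18 (log2 fold change 1.36) and CDH1 (0.76) rose and EPCAM did not pass (-0.18). Of the blood markers, PTPRC fell by 1.61. Of the bone and mesenchymal markers, BGLAP (0, 0 and 1 counts against 5, 6 and 6) and VIM (0.32) rose, COL1A1 fell by 0.35 and SPARC by 0.17, and RUNX2, COL1A2 and ALPL did not pass. The part of these changes in the results below was not tested. In bulk RNA, fewer cells of a kind and less RNA per cell cannot be told apart. Chi-square per degree of freedom between libraries was taken over genes with higher total counts, with low-count genes left out. It was 4.09 to 5.88 within a condition and 93.8 to 116 between conditions, so no library was a copy of another.

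DT genes were a small part of this RNA. Their counts summed to 46751 to 51263 per library, or 0.106% to 0.110% of all counts. At least 10 counts over the 6 libraries were reached by 471 members, which were tested, whereas 117 fell below, 36 of them with 0 counts throughout. The median level of the tested members was 0.469 CPM, 162 had a mean of at least 1 CPM and 23 of at least 10 CPM. The 10 highest members held 34.8% of the summed level. Per kilobase of exon, a DT gene stood at a median of 5.20% of its partner (quartiles 1.40% and 19.7%), and 94 tested members were below 1%. In 29 pairs the DT gene lay above its partner per kilobase. BAIAP2-DT was the highest member at 112.7 CPM, or 23.6 CPM per kilobase against 6.66 for BAIAP2, a scaffold protein of the actin cytoskeleton. C2orf74-DT stood at 7.25 CPM per kilobase against 0.262 for C2orf74, and ZDHHC12-DT at 14.7 against 11.7 for ZDHHC12, a palmitoyltransferase. ZDHHC12-DT and C2orf74-DT overlap another annotated gene on the opposite strand. The strand setting of the counting is not given in the sources used here, and without strand the reads of such genes cannot be told apart.

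After SFPQ depletion, 47 of the 471 tested members rose and 64 fell, where rose and fell mean an adjusted p under 0.05 in edgeR. These are 9.98% and 13.6% of the members, against 22.4% and 22.1% of all 29022 genes tested. For 360 members the test was not passed. The median log2 fold change was -0.08 (quartiles -0.49 and 0.34), against 0.02 over all genes tested. The balance of rises and falls depended on scaling: with library size alone, 60 rose and 50 fell. These shares varied with the level of the members. Below 0.2 CPM, 2 of 125 members rose and 3 fell, whereas at 5 CPM or more 10 of 44 rose and 16 fell. Among genes of at least 1 CPM, 29 of 162 DT genes rose (17.9%) and 41 fell (25.3%), against 30.6% and 26.0% of 1465 other lncRNA genes and 30.1% and 34.5% of all 15641 genes. The difference between these shares was not tested. The median levels of DT genes and other lncRNA genes were close, with 2.78 CPM and 2.54 CPM. All genes of at least 1 CPM had a median of 22.5 CPM, so level was not held equal in that comparison.

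Large changes were few. With a log2 fold change beyond 1.5 as a second requirement, 8 tested members were called higher (1.7%, against 5.54% of all genes tested) and 11 lower (2.34%, against 4.77%). Among genes of at least 1 CPM the calls were 1 higher and 3 lower in 162 DT genes, or 0.617% and 1.85%, against 4.78% and 4.57% of other lncRNA genes and 1.77% and 4.15% of all genes at this level. Of 376 antisense lncRNA genes, with symbols ending in -AS or in -AS and a number, 2.93% were called higher and 1.06% lower. The quartiles of the log2 fold change at this level were -0.38 and 0.24 for DT genes and -0.36 and 0.46 for other lncRNA genes. The 3 libraries of one condition all lay above those of the other in normalised counts in 158 tested members (33.5%, against 52.3% of all genes tested), among them 43 of the 47 that rose and 58 of the 64 that fell. Counts moved with single libraries: without siSFPQ replicate 1, 39 members fell and 5 were called higher, and without siControl replicate 3, 17 were called higher.

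**Figure D1:**
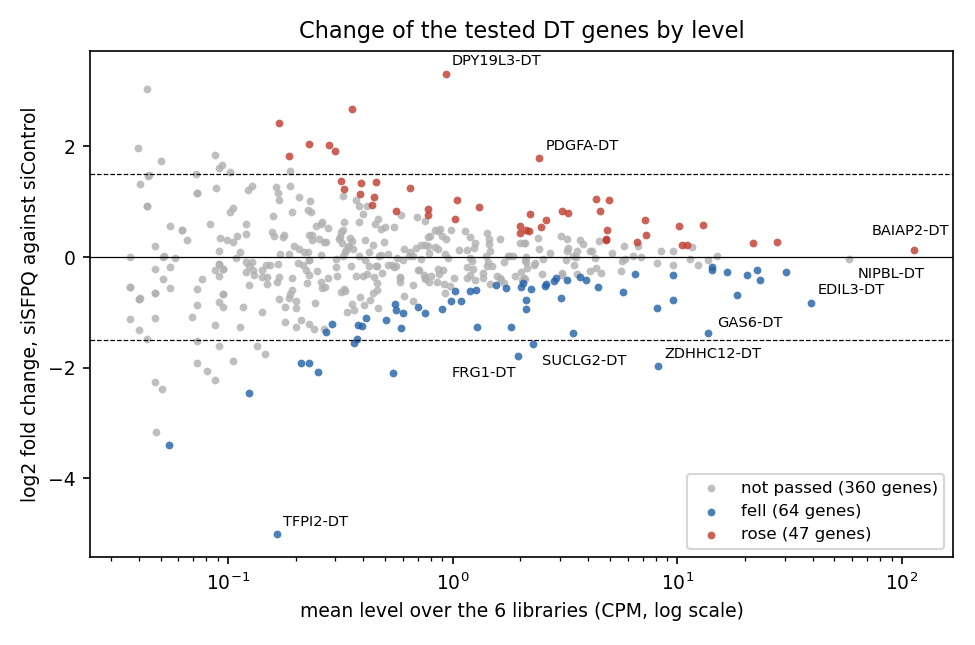
Log2 fold change of siSFPQ against siControl (vertical axis) by the mean level over the 6 libraries in CPM (horizontal log axis), 1 point for each of the 471 tested DT genes, red where the gene rose, blue where it fell and grey where the test was not passed. Dashed lines mark log2 fold changes of 1.5 and -1.5. Beyond them and at 1 CPM or more lie PDGFA-DT above and ZDHHC12-DT, FRG1-DT and SUCLG2-DT below.

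The member of at least 1 CPM called higher was PDGFA-DT (ENSG00000223855, chr7:520391-530163), beside the gene of a growth factor for mesenchymal cells. Counts of PDGFA-DT were 39, 59 and 51 in siControl and 198, 188 and 129 in siSFPQ. The lowest siSFPQ library lay well above the highest siControl library. The log2 fold change was 1.78 (SE 0.19, adjusted p = 1.19e-09). PDGFA had 1625, 1661 and 1745 counts against 1810, 1854 and 1957, a log2 fold change of 0.16. The coding gene thus rose less than the DT gene, whose annotated start lies 95 bases away, by 1.62 on the log2 scale (SE 0.22, adjusted p = 5.97e-05).

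ZDHHC12-DT (ENSG00000223478, chr9:128724435-128733199) fell most among members of at least 1 CPM. It had 576, 562 and 652 counts in siControl and 138, 173 and 148 in siSFPQ, with no overlap between the conditions. The log2 fold change was -1.97 (SE 0.10, adjusted p = 2.99e-17), whereas ZDHHC12 fell by 0.21 on the log2 scale, a difference of -1.76 (SE 0.14). FRG1-DT (ENSG00000245685, chr4:189764391-189940733) had 157, 153 and 106 counts against 39, 39 and 42, a log2 fold change of -1.79 (SE 0.20, adjusted p = 2.07e-09). Its 3 siSFPQ libraries were nearly equal, and the siControl libraries were spread more widely. FRG1-DT, like ZDHHC12-DT, overlaps another annotated gene on the opposite strand. FRG1, named for the muscular dystrophy region it lies in, was at -0.08 and did not pass the test (adjusted p = 0.283), and the difference was -1.71 (SE 0.22).

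SUCLG2-DT (ENSG00000241316, chr3:67654669-67947713) fell together with its partner. SUCLG2-DT had 145, 164 and 159 counts in siControl and 51, 50 and 57 in siSFPQ, a log2 fold change of -1.57 (SE 0.17). SUCLG2, the GTP-specific subunit of the citric acid cycle enzyme succinyl-CoA ligase, had 2694, 2788 and 2692 against 694, 724 and 711, a log2 fold change of -1.95 (SE 0.05). Both genes are long, at 293045 and 294153 bases, and the difference between their changes was 0.38 (SE 0.17, adjusted p = 0.113). GAS6-DT, next to the gene of a ligand of TAM receptor kinases, fell from 845, 992 and 885 counts to 335, 346 and 368, a log2 fold change of -1.38 (SE 0.08). GAS6 fell by 1.12 on the log2 scale, from 5024, 5416 and 5329 counts to 2292, 2460 and 2545. The difference of -0.26 (SE 0.09, adjusted p = 0.042) was not passed with the replicate number as a block (adjusted p = 0.0548), with limma, or without siControl replicate 2 or any of the siSFPQ replicates.

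Among the most abundant members, EDIL3-DT changed most. BAIAP2-DT had 4779, 5176 and 4755 counts in siControl and 5144, 5538 and 5546 in siSFPQ. The raw counts overlap slightly, and the normalised counts do not. The log2 fold change was 0.14 (SE 0.04, adjusted p = 0.00591), against 0.91 (SE 0.05) for BAIAP2, a difference of -0.77 (SE 0.07). NIPBL-DT, beside the gene of the cohesin loader, had 2582, 2766 and 2771 counts against 2540, 2805 and 2570 and did not pass the test (log2 fold change -0.04, adjusted p = 0.506). NIPBL fell by 0.28 on the log2 scale, and the difference of 0.24 (SE 0.07, adjusted p = 0.012) was passed, but not with limma (adjusted p = 0.145) or without siSFPQ replicate 1 (adjusted p = 0.0663). SLC12A2-DT, which overlaps another gene on the opposite strand, rose from 1157, 1121 and 1157 counts to 1392, 1400 and 1392. Its log2 fold change was 0.28, and SLC12A2, the NKCC1 ion cotransporter, rose by 0.20. CNN3-DT fell by 0.41, from 1233, 1155 and 1264 counts to 821, 985 and 947, and CNN3, an actin-binding calponin, fell by 0.16. EDIL3-DT fell from 2274, 2350 and 2272 counts to 1222, 1374 and 1307, a log2 fold change of -0.83 (SE 0.05).

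**Figure D2:**
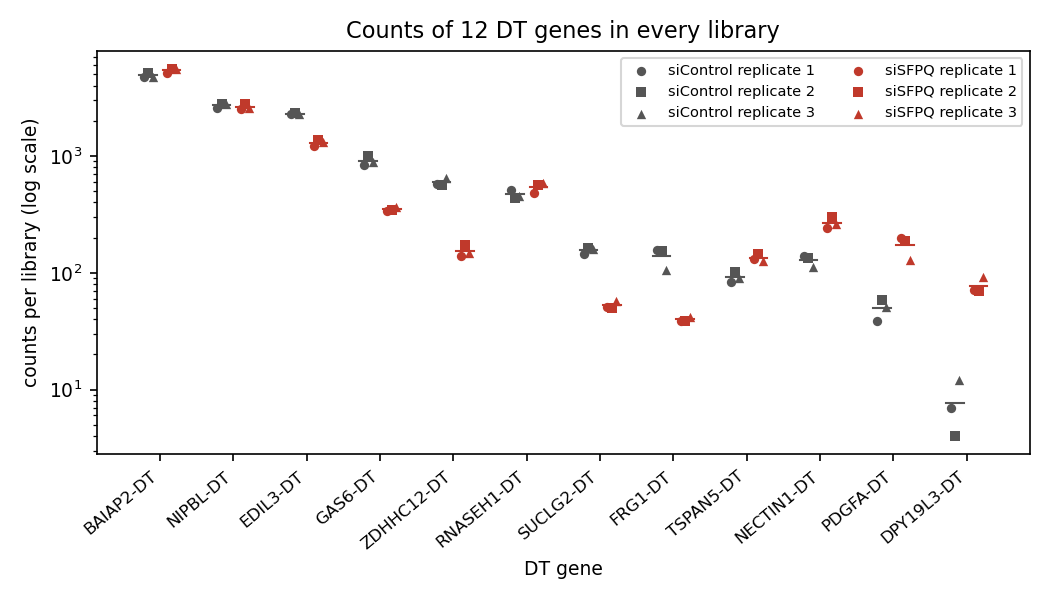
Counts per library (vertical log axis) of 12 DT genes, with grey symbols for the 3 siControl and red symbols for the 3 siSFPQ libraries, symbol shape for the replicate number and short lines for the means. The conditions are clearly apart for EDIL3-DT, GAS6-DT, ZDHHC12-DT, SUCLG2-DT, FRG1-DT, NECTIN1-DT and PDGFA-DT. They overlap for NIPBL-DT and RNASEH1-DT, and slightly for BAIAP2-DT in these raw counts, though not in normalised counts.

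Each pair was tested in 1 edgeR fit for the difference between the log2 fold change of the DT gene and that of its partner. Of 468 pairs tested, 68 had the DT gene's change above the partner's and 54 below, together 26.07%. Of the 4323 other pairs of neighbouring opposite-strand genes tested in the same way, 28.85% passed. Over all 4791 pairs, DT pairs included, the share was 28.6%. The median absolute difference was 0.50 on the log2 scale. Of the 576 partners tested alone, 148 rose (25.7%) and 248 fell (43.1%), against 28% and 30.9% of all 16477 protein-coding genes tested. Their median levels differed, with 35.2 CPM for partners and 18.7 CPM for protein-coding genes. At 1 CPM or more, 26.9% of partners rose and 45% fell, against 31.3% and 36.5% of protein-coding genes. Of the 47 members that rose, 17 had a partner that rose, 19 a partner that fell and 11 a partner that did not pass the test. Of the 64 members that fell, 27 had a partner that fell, 12 a partner that rose and 25 a partner that did not pass. Partners fell beside 155 and rose beside 94 of the 360 members that did not pass. Across the 468 pairs, Pearson's r between the log2 fold changes was 0.23 and the Spearman coefficient 0.19, a description across genes that share the same 6 libraries. At 1 CPM or more for the DT gene, r was 0.21 over 162 pairs, against 0.154 over 1877 other opposite-strand pairs with both genes at that level. With both genes at 1 CPM or more, the difference was passed in 67 of 158 DT pairs (42.4%) and in 890 of the 1877 other pairs (47.4%), and these shares were not compared by a test.

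**Figure D3:**
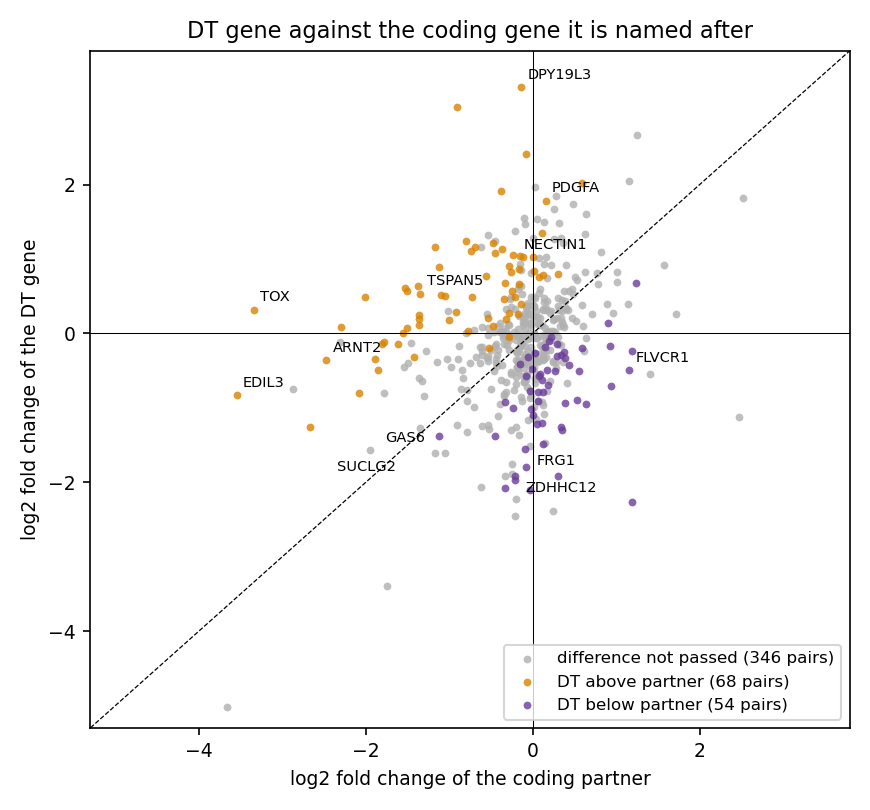
Log2 fold change of the DT gene (vertical axis) against that of the coding partner (horizontal axis) for the 468 tested pairs, labelled by the partner. Orange points (68) have a DT change above the partner's, purple points (54) below, and grey points did not pass, with equal changes on the dashed line. EDIL3, TOX, ARNT2 and TSPAN5 lie far to the left, where the partner fell by more than the DT gene changed.

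In 19 pairs the DT gene rose and the partner fell, and in 12 the DT gene fell and the partner rose. TSPAN5-DT had 84, 101 and 91 counts in siControl and 131, 145 and 126 in siSFPQ. All siSFPQ libraries lay above all siControl libraries, and the log2 fold change was 0.54 (SE 0.16). TSPAN5, a tetraspanin, went from 3978, 4025 and 4327 counts to 1479, 1704 and 1690, a log2 fold change of -1.34 (SE 0.05). NECTIN1-DT, beside the gene of a cell adhesion molecule, rose from 139, 135 and 112 counts to 240, 299 and 264, a log2 fold change of 1.05 (SE 0.13). NECTIN1 fell from 2552, 2592 and 2357 counts to 2000, 2186 and 2198, by 0.24 on the log2 scale. The differences were 1.88 (SE 0.14) and 1.29 (SE 0.13).

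The opposite pattern was seen at FLVCR1-DT, next to the gene of a heme and choline transporter. FLVCR1-DT fell from 140, 138 and 140 counts to 100, 95 and 103, a log2 fold change of -0.49 (SE 0.15), and FLVCR1 rose from 481, 649 and 707 counts to 1409, 1271 and 1424, a log2 fold change of 1.16 (SE 0.09). HCCS-DT fell from 56, 83 and 109 counts to 34, 39 and 31, a log2 fold change of -1.26 (SE 0.25). The siControl libraries of HCCS-DT were spread widely but did not overlap with siSFPQ, and HCCS, which attaches heme to cytochrome c, rose by 0.34. DUSP5-DT fell from 122, 127 and 132 counts to 59, 72 and 69, a log2 fold change of -0.93 (SE 0.17). DUSP5, a phosphatase of ERK kinases, rose from 417, 539 and 529 counts to 631, 641 and 682, a log2 fold change of 0.39. The differences were -1.66 (SE 0.19) for FLVCR1-DT, -1.58 (SE 0.25) for HCCS-DT and -1.33 (SE 0.20) for DUSP5-DT. FLVCR1-DT and DUSP5-DT overlap another gene on the opposite strand, whereas HCCS-DT overlaps none. FLVCR1-DT also overlaps a gene on its own strand.

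Among the 17 pairs that rose together, 11 did not pass the test of the difference, 4 had the DT gene above and 2 had it below. Among the 27 that fell together, 14 did not pass, 4 had the DT gene above and 9 below.

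The difference between a DT gene and its partner varied with the length of the partner. Partners that span 100 kb or more fell in 88 of 126 tested pairs (69.8%) and rose in 14, with a median log2 fold change of -0.47. Among all 3424 protein-coding genes of that length, 56.5% fell and 14.6% rose, with a median of -0.35. The DT genes beside the long partners fell in 20 pairs (15.9%) and rose in 7, with a median of -0.15. The DT gene's change lay above the partner's in 32 of these pairs and below in 3, with a median difference of 0.32. This count was not made for other opposite-strand pairs with a long gene, so it cannot be called particular to DT pairs. Where the partner spans less than 100 kb, 109 of 342 partners rose and 113 fell, 40 DT genes rose and 44 fell, and the DT gene's change lay above in 36 pairs and below in 51. Among DT genes of at least 1 CPM the contrast was similar, with 16 above and 1 below in 34 pairs with long partners, and 18 above and 34 below in 128 pairs with shorter ones. The difference between the length classes was not tested. By the length of the DT gene itself, split at 50 kb and not 100 kb, 11 of 88 tested members of 50 kb or more rose and 16 fell. Their median was -0.01. Among all 738 lncRNA genes tested that span 100 kb or more, 28.3% fell and 13.4% rose, with a median of -0.28.

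EDIL3, which encodes an integrin-binding matrix protein and spans 444327 bases, showed the pattern at high counts. EDIL3 fell from 47444, 52040 and 52081 counts to 3785, 5008 and 4241, a log2 fold change of -3.55 (SE 0.06). EDIL3-DT (ENSG00000250320, chr5:84382424-84490765) fell too but kept more than its partner, and the difference was 2.72 (SE 0.07, adjusted p = 9.03e-12). The start of EDIL3-DT lies 2456 bases inside EDIL3, so the genes overlap on opposite strands.

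TOX, which encodes an HMG-box protein of the nucleus, fell from 349, 319 and 315 counts to 29, 39 and 29, a log2 fold change of -3.34 (SE 0.16). TOX-DT had 105, 144 and 143 counts in siControl and 122, 184 and 186 in siSFPQ. Its conditions overlap, its log2 fold change of 0.32 did not pass (adjusted p = 0.10), and the difference was 3.66 (SE 0.30). The rise of TOX-DT was passed with library size alone (adjusted p = 0.0464) and without siSFPQ replicate 1 (adjusted p = 0.021). ARNT2, a bHLH-PAS transcription factor, fell from 952, 1087 and 1067 counts to 151, 198 and 212, a log2 fold change of -2.47 (SE 0.09). ARNT2-DT had 204, 177 and 187 counts against 171, 132 and 141, a log2 fold change of -0.36 (adjusted p = 0.0328). This fall was not passed with DESeq2 (adjusted p = 0.0851) or with library size alone (adjusted p = 0.0827), nor without siControl replicate 1 or 3 or siSFPQ replicate 2 or 3, while the difference from ARNT2 was 2.12 (SE 0.23, adjusted p = 7.06e-06). TOX-DT overlaps its partner by its start, and ARNT2-DT overlaps no other annotated gene.

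**Figure D4:**
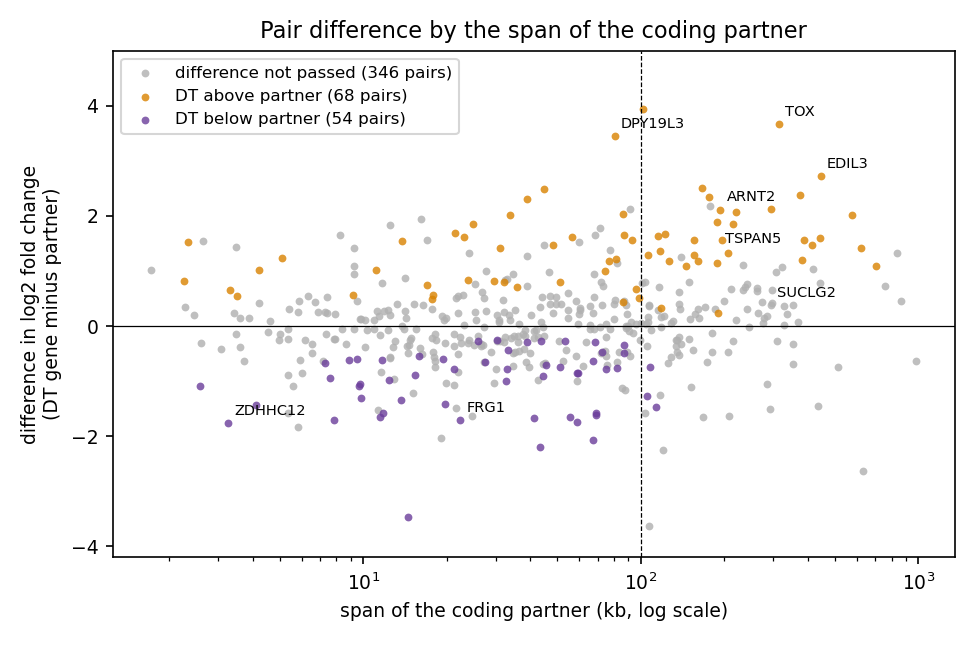
Difference in log2 fold change, DT gene minus partner (vertical axis), by the span of the partner in kb (horizontal log axis), 1 point per tested pair and colours as in the plot of DT gene against partner. To the right of the dashed line at 100 kb, 32 pairs lie above 0 and 3 below among those that passed, and to the left 36 lie above and 51 below.

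Pairs whose partners act on DNA, RNA or in signalling were mixed. RNASEH1-DT lies 86 bases from RNASEH1, the nuclease that removes RNA from RNA-DNA hybrids. RNASEH1-DT had 514, 440 and 454 counts in siControl and 484, 566 and 585 in siSFPQ. The conditions overlap, the log2 fold change was 0.21 (SE 0.09, adjusted p = 0.0474), and the call was lost with DESeq2 (adjusted p = 0.0981), with no filter on low counts (adjusted p = 0.0666), and without siControl replicate 2 or 3 or siSFPQ replicate 2 or 3 (adjusted p of 0.12 to 0.186). RNASEH1 fell from 1256, 1370 and 1372 counts to 908, 931 and 938, a log2 fold change of -0.53 (SE 0.06), and the difference was 0.74 (SE 0.14, adjusted p = 0.000867). PAXIP1-DT fell from 174, 164 and 170 counts to 128, 135 and 118, a log2 fold change of -0.42, whereas PAXIP1, a BRCT-domain protein of the DNA damage response, rose by 0.43. Without siSFPQ replicate 3, the fall of PAXIP1-DT was not passed (adjusted p = 0.0738). FAM111A-DT did not pass (log2 fold change -0.06), and FAM111A, a protease that acts at replication forks, fell by 0.36.

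SRP14-DT rose from 269, 319 and 266 counts to 367, 393 and 371, a log2 fold change of 0.40 (SE 0.10). SRP14, a subunit of the signal recognition particle, fell by 0.14 on the log2 scale. SRP14-DT overlaps another annotated gene on each strand. OSER1-DT fell by 0.31, from 306, 357 and 318 counts to 262, 264 and 265, beside an OSER1 that did not pass, and without siControl replicate 2 this fall was not passed (adjusted p = 0.0661). STK4-DT, beside the gene of the Hippo pathway kinase MST1, had 18, 35 and 21 counts against 17, 5 and 3, a log2 fold change of -1.55 (SE 0.50). This fall rests on few counts and was not passed without siControl replicate 2, siSFPQ replicate 2 or siSFPQ replicate 3. COX10-DT (-0.03), UBA6-DT (-0.15), TMEM161B-DT (0.02) and CEBPA-DT (-0.09, at most 10 counts per library) did not pass.

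Members were also grouped by the symbol of the partner. Of 11 tested members beside genome maintenance and cell cycle genes, CDC20-DT and RNASEH1-DT rose and CDK13-DT and PAXIP1-DT fell, and 3 of their partners rose and 6 fell. Of 17 beside RNA processing and translation genes, EIF2B5-DT and SRP14-DT rose and 2 fell, EIF2AK3-DT among them. Of 18 beside zinc finger genes 3 rose and 2 fell, and of 10 beside mitochondrial genes SUCLG2-DT and UQCRFS1-DT fell. Among 10 members beside other transcription factor genes the median was -0.59 (log2) at a median level of 0.188 CPM, and 0 of them passed in edgeR, by unadjusted p under 0.05 as well, or in DESeq2. In the remaining 404 members, 40 rose and 56 fell with a median of -0.06.

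With start sites apart by 100 bases or less, 10 of 120 tested members rose and 19 fell, and at more than 100 and up to 300 bases 13 of 154 rose and 23 fell. Where the DT gene starts inside the partner's side within 1000 bases, 12 of 87 rose and 9 fell. Of 207 tested members that overlap no other annotated gene, 15 rose and 34 fell, with a median of -0.15, and of 264 that overlap another gene, 32 rose and 30 fell, with a median of -0.03. The ETS letters were found in 29.6% of 54 windows of members that fell, in 24.2% of 33 windows of members that rose, and in 19.6% of 271 windows of members that did not pass. In 82 windows of members with too few counts to be tested, the share was 4.88%. GC boxes were found in 72.2%, 81.8%, 73.1% and 73.2% of these windows, in the same order. The level of the members was not held equal between these sets, and the differences were not tested.

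Below 1 CPM, 7 further members were called higher and 8 lower, and those named here were chosen after their values were seen. DPY19L3-DT had 7, 4 and 12 counts in siControl and 71, 70 and 92 in siSFPQ, a log2 fold change of 3.31 (SE 0.33, adjusted p = 2.4e-10). DPY19L3, a C-mannosyltransferase, fell by 0.14 on the log2 scale, and the difference was 3.45 (SE 0.32). The DT gene overlaps its partner by its start, and its siSFPQ counts were far above every siControl library. DLX2-DT, beside a homeobox gene, had 4, 4 and 5 counts against 29, 27 and 29, a log2 fold change of 2.67 (SE 0.48). TNKS2-DT, beside the gene of a tankyrase, had 34, 40 and 47 counts against 12, 8 and 8, a log2 fold change of -2.10 (SE 0.37), while TNKS2 was at -0.03 and did not pass. TFPI2-DT, beside the gene of a serine protease inhibitor, had 16, 9 and 19 counts against 1, 0 and 0. The ratio of summed counts per library total, siControl over siSFPQ, was 42.2 (exact 95% interval 7.20 to 1706, counting error only). For NUP93-DT (21, 3 and 5 counts against 1, 3 and 1) this ratio was 5.57 (2.13 to 18.4), and for ANKH-DT (5, 8 and 1 against 0, 1 and 0) it was 13.4 (2.04 to 568.4). The partners TFPI2 (at most 14 counts per library), NUP93 and ANKH fell as well, by 3.67, 0.21 and 1.75 on the log2 scale. The pair differences were not passed for TFPI2-DT (adjusted p = 0.773), NUP93-DT (0.0679) and ANKH-DT (0.336). For DLX2-DT the difference was not passed either (0.353), while for TNKS2-DT it was (6.87e-05). The DT genes named here rest on few reads, and their fold changes carry correspondingly large errors.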

How the data were processed

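Polyadenylated RNA of 6 U-2 OS libraries (TruSeq stranded mRNA kit, paired-end) was sequenced. Per the labels and methods, the authors checked reads with FastQC, aligned them with STAR 2.7.9a to GRCh38 and deposited raw counts per Ensembl gene. The strand setting of the counting is not given in the sources used here.

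Gene classes, symbols and positions came from GENCODE 44, matched by gene ID for 60463 of 60664 genes. The DT members, the named genes and the partner groups were chosen with earlier results of these data known. Genes with at least 10 counts in total (29022) were fitted with edgeR 4.0.16 (TMM, quasi-likelihood test, Benjamini-Hochberg adjustment over all genes, threshold 0.05). Called adds a log2 fold change beyond 1.5. For pairs, the counts of both genes in the 6 libraries were fitted with library, gene and gene-by-condition terms. In both fits, SE is the absolute log2 value divided by the square root of the F statistic, so it restates that test. The 4791 pairs adjusted together were the opposite-strand pairs with start sites within 5000 bases, plus the named pairs not among them. Partner groups were set by symbol prefixes. Levels per kilobase use the annotated exon length. Named genes were the called members of at least 1 CPM without overlap between conditions, the 6 highest members, the pairs of at least 1 CPM with the largest differences (5 in each direction and 5 with opposite directions), and a list of fixed pairs. Some items that these rules take in are not reported here. Alternatives used DESeq2 1.42.0 and limma 3.58.1, other filters and scalings, and left out single libraries. Scripts were tested on simulated data. Counts set the precision, and the level of 3 counts is given per library.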

Additional observations from a re-analysis of the deposited data

How the results depend on the processing

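The counts of members that rose and fell, 47 and 64, changed under these settings. DESeq2 gave 30 that rose and 43 that fell. Members overlapping no other gene gave 15 and 34, with 2 called higher and 5 lower. Members of at least 1 CPM gave 29 and 41, with 1 called higher and 3 lower. A log2 fold change threshold of 1 gave 18 called higher and 25 lower, and edgeR's filterByExpr gave 7 called lower. Leaving out 1 library at a time gave 32 to 49 that rose, 39 to 60 that fell, 5 to 17 called higher and 8 to 14 called lower. For pairs it gave 50 to 70 with the DT gene's change above, 34 to 53 below, and, with partners of 100 kb or more, 24 to 33 above and 1 to 6 below. With limma on log2 ratios, 48 pairs lay above and 33 below, and with a long partner 23 above and 5 below. With the other opposite-strand pairs limited to start sites within 1000 bases, and every DT pair kept, 5 lay below with a long partner. The difference of the separately fitted changes, chosen after seeing the data, also gave 5 below with a long partner. A span of 50 kb or more gave 19 below, a span of 200 kb or more 14 above and 0 below, and DT genes of at least 1 CPM 16 above and 1 below. These span and level choices were also added after seeing the data. The cause of these differences was not tested where the alternative does not itself change the genes or samples used.

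Replicate numbers did not pair the libraries: the deviations of libraries with the same number correlated at -0.029, 0.0661 and 0.0316. With the replicate block, 49 members rose and 64 fell, 64 pairs lay above and 53 below, and for long partners 31 above and 4 below.

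Signs turned in members that did not pass the test. With library size alone, NIPBL-DT was at 0.0219 and COX10-DT at 0.0350. Leaving out 1 library gave -0.0927 to 0.0929 for COX10-DT, -0.0782 to 0.151 for TMEM161B-DT and -0.576 to 0.588 for CEBPA-DT. The pair difference ranged from -0.811 to 0.569 for CEBPA-DT and from -0.0713 to 0.0902 for UBA6-DT. Over the named members and all alternatives, 307 values kept direction and side of the threshold, 17 lost the call, 2 gained it and 9 reversed. For pair differences these numbers were 280, 14, 10 and 3.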

Other observations

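Beside EDIL3-DT, TOX-DT, ARNT2-DT and TSPAN5-DT, several more DT genes of at least 1 CPM differed from a long partner. They were chosen after their values were seen. CRIM1-DT (log2 fold change 0.19), PCCA-DT (0.08), TBC1D22A-DT (0.11), GALNT7-DT (0.01) and TCF12-DT (0.29) did not pass the test. Their partners fell by 1.37, 1.51, 1.36, 1.55 and 0.91 on the log2 scale, in this order. PCCA encodes a subunit of the mitochondrial propionyl-CoA carboxylase, GALNT7 an enzyme of O-glycosylation and TCF12 a bHLH transcription factor. GMDS-DT fell by 1.26 beside GMDS, an enzyme of GDP-fucose synthesis, which fell by 2.67. MAP4K3-DT rose by 1.03 beside a MAP4K3 that fell by 0.12. EMSY-DT, the exception at this level, fell by 0.78 while EMSY was at -0.03 and did not pass. The pair differences were passed in all of these.

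APCDD1L-DT had 785, 1027 and 904 counts in siControl and 1049, 1080 and 1103 in siSFPQ, while APCDD1L had 79, 65 and 51 against 26, 27 and 23. Per kilobase APCDD1L-DT stood at 3.26 CPM against 0.235 for its partner, and the difference between their log2 fold changes was 1.61 (SE 0.27).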
